A study of Mus musculus with 23 samples.

Results

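The 38 genes described here encode the acid hydrolases, membrane proteins and proton pump of the lysosome, together with Tfeb, a transcription factor of lysosomal genes. They comprise 15 subunits and accessory proteins of the vacuolar H+-ATPase (V-ATPase), 9 peptidases, 5 glycosidases, the sphingolipid activator precursor Psap, 5 membrane proteins, the cholesterol exporters Npc1 and Npc2, and Tfeb. They were chosen by gene symbol, and all 38 were found among the 24062 genes in the deposited files. All 38 also passed the filter on low counts, which kept 14196 genes.

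The data are 23 libraries of polyA RNA from mouse liver, 1 per mouse, in animals labelled B6/129. Mice were wild type (WT) or carried a knockout (KO) of Ehhadh, which encodes the peroxisomal L-bifunctional enzyme of fatty acid oxidation, and received saline or L-AC. The labels name L-AC by this abbreviation only, which in work on fatty acid oxidation stands for L-aminocarnitine, an inhibitor of mitochondrial carnitine palmitoyltransferase; they give neither its dose and duration nor the design of the deletion. The groups were WT saline (7 mice, 29 to 45 weeks old), KO saline (5 mice, 31 to 44 weeks), WT L-AC (6 mice, 28 to 44 weeks) and KO L-AC (5 mice, 28 to 38 weeks).

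Libraries held 24521896 to 48095959 counted reads, and a single lysosomal gene had 71 to 83592 reads in a library. Levels are read counts relative to the TMM-scaled library size, in CPM, and a gene was called changed where its adjusted p in edgeR, over all genes tested, was under 0.05. Ehhadh itself was at 954 ± 335 CPM in WT saline and 142 ± 64.3 CPM in KO saline livers (SD, n = 7 and n = 5), and at 13040 ± 1602 and 1658 ± 286 CPM in WT and KO under L-AC (SD, n = 6 and n = 5). All KO libraries lay below all WT libraries of the same treatment.

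Lysosomes degrade proteins, glycans, glycolipids and lipids delivered by endocytosis and autophagy, and in hepatocytes and Kupffer cells they also process lipoproteins and lipid droplets. Their hydrolases work at acidic pH, which the V-ATPase maintains: its cytosolic V1 sector hydrolyses ATP and turns the rotor of the membrane-bound V0 sector, which moves protons into the lumen. Tfeb and its relatives Tfe3 and Mitf bind an E-box motif in the promoters of many lysosomal genes and are held in the cytoplasm by phosphorylation, chiefly by mTORC1 at the lysosomal surface.

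L-AC was followed by higher levels of most V-ATPase subunits and of a few hydrolases and membrane proteins, led by the peptidase Ctsl and the tetraspanin Cd63, and by lower levels of other hydrolases, of both LAMP proteins, of Npc2 and of Tfeb. In WT mice 27 of the 38 genes were called, 18 higher and 9 lower, where 53.3% of all genes tested were called, 26.6% higher and 26.7% lower. In KO mice 25 of 38 were called, 16 higher and 9 lower, where 48.8% of all genes were called, 25.2% higher and 23.6% lower. The median log2 change of the 38 genes was 0.13 in WT and 0.07 in KO, and that of all genes tested was -0.01 in each genotype. With library totals and no scaling factor, a setting chosen after seeing the data, the median gene moved up by 0.11 in KO, and 18 of the 38 genes were called higher and 6 lower there. The shares of all genes called under that setting were not counted, and the shares above are from the TMM-scaled fit. In size irrespective of direction, the median log2 change was 0.41 for the 38 genes and 0.37 for all genes in WT, and 0.38 and 0.39 in KO.

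The L-AC and saline libraries did not overlap for 14 of the 38 genes in WT, 12 above and 2 below, where 24.1% of all genes had groups that did not overlap. In KO they did not overlap for 19 genes, 13 above and 6 below, against 32.6% of all genes. The reads of the 38 genes summed to 5325 to 6341 CPM in WT saline, 5581 to 6138 CPM in KO saline, 6724 to 7450 CPM in WT L-AC and 6301 to 7759 CPM in KO L-AC livers, without overlap between treatments in either genotype. Most of the rise in that sum was Ctsl. The mean sum went from 5667 to 6972 CPM in WT and from 5744 to 6962 CPM in KO. Ctsl alone went from a mean of 503 to 1571 CPM in WT and from 477 to 1580 CPM in KO. Fewer cells of a type and less RNA per cell cannot be told apart in these bulk samples.

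**Figure D1:**
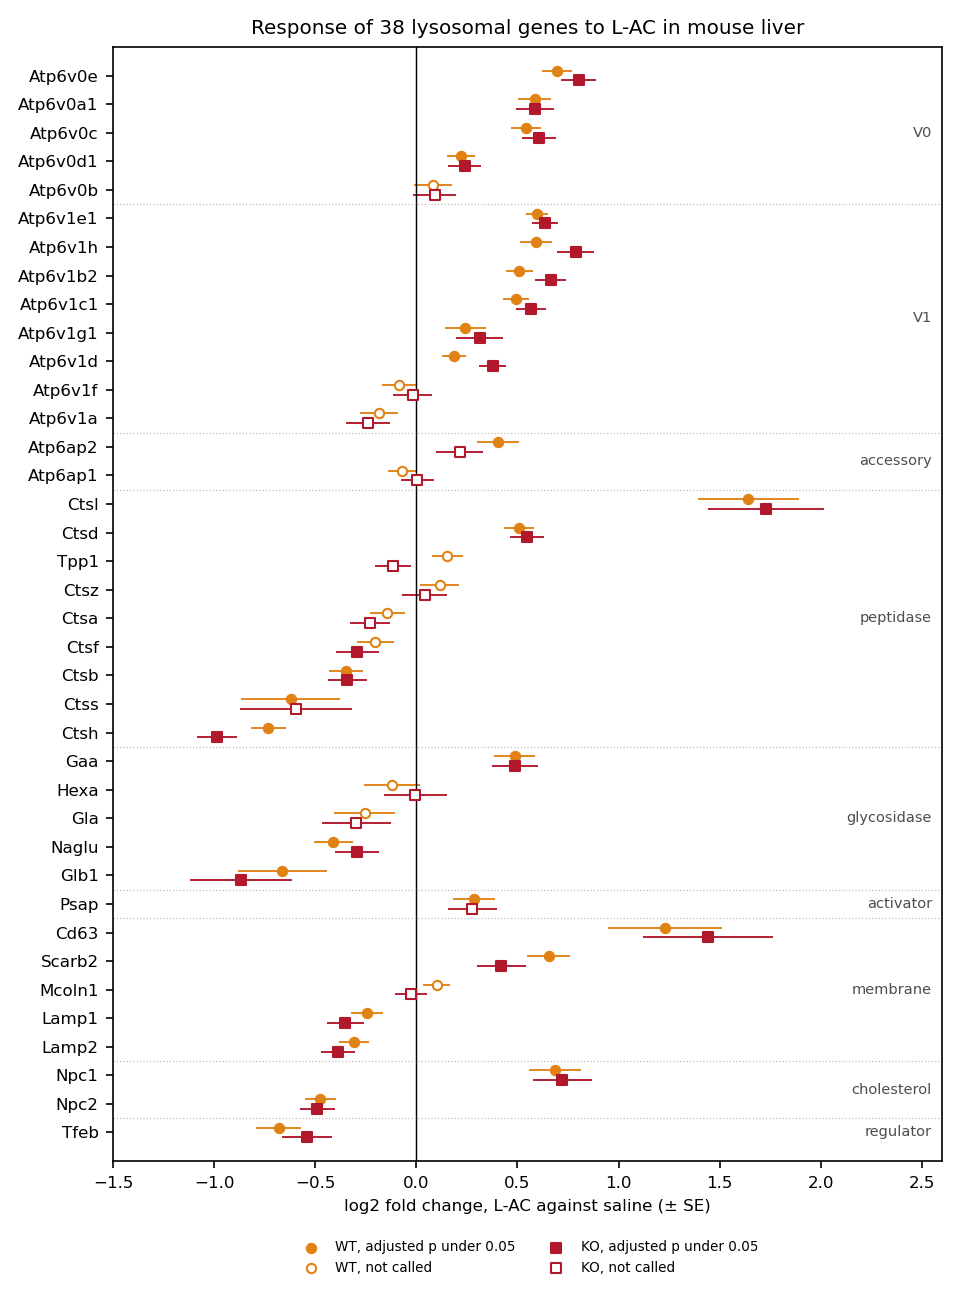
The log2 fold change of L-AC against saline is plotted for each of the 38 genes in WT (circles) and KO (squares) livers, with bars of 1 SE, grouped by role; filled symbols are called at an adjusted p under 0.05. Ctsl and Cd63 lie farthest to the right in both genotypes, 10 or 11 of the 15 V-ATPase genes are filled to the right of 0, and none of the 15 is filled to the left.

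Tfeb, a regulator of the group, was itself lower under L-AC. Its level was 9.76 to 14.8 (median 12.3) CPM in the WT saline and 6.63 to 9.78 (median 7.37) CPM in the WT L-AC libraries. In KO mice it was 14.4, 13.2, 13.4, 13.5 and 12.7 CPM under saline and 8.70, 9.94, 9.77, 10.8 and 6.95 CPM under L-AC. The groups did not overlap in KO, and in WT they overlapped by 1 L-AC library at 9.78 CPM and 1 saline library at 9.76 CPM. The log2 change was -0.68 ± 0.11 (SE) in WT, with an edgeR adjusted p of 2.34e-05, and -0.54 ± 0.13 in KO, with an adjusted p of 0.00113. These are RNA levels, and phosphorylation and location of the Tfeb protein were not measured.

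The core of the E-box bound by Tfeb reads CACGTG, and the extended palindrome TCACGTGA contains it. Both were searched in RefSeq promoter windows of 300 bases on GRCm38.p6, from 250 bases before to 50 after the start of transcription; each motif equals its own reverse complement, so that a match holds on both strands. Of the 38 genes, 31 had a window in the table. Those without one were Atp6v1b2, Atp6v1c1, Atp6v1g1, Atp6v1h and Npc1, called higher under L-AC in both genotypes, and Ctsb and Ctsh, called lower in both. They are left out of the counts by motif. CACGTG was found in 14 of the 31, and in 7.15% of the 32851 windows in the table and 11.4% of the 10475 tested genes that have one. TCACGTGA was found in 7 of the 31, in 0.974% of all windows and in 2.09% of the tested genes. Below are the matches of 3 genes with the extended motif that rose under L-AC in both genotypes (Atp6v0e, Atp6v0d1 and Ctsd, which has a second match with the core alone, printed after the first), of 4 with it that were not called in either (Atp6v1a, Ctsa, Mcoln1, Gla), of 2 with the core alone that rose in both (Ctsl, Gaa) and of 3 with the core alone that fell in both (Glb1, Naglu, Lamp1). Sequences run 5′ to 3′ on the strand of the gene, and capitals mark each CACGTG.
Atp6v0e (chr17:26676379-26676424, plus strand): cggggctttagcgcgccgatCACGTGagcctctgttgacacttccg
Atp6v0d1 (chr8:105566042-105566087, minus strand): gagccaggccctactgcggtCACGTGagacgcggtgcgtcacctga
Ctsd (chr7:142387900-142387945, minus strand): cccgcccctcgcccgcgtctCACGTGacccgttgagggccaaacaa
Ctsd (chr7:142388047-142388077, minus strand): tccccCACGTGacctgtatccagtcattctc
Atp6v1a (chr16:44139365-44139410, minus strand): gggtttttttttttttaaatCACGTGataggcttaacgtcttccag
Ctsa (chr2:164833741-164833803, plus strand): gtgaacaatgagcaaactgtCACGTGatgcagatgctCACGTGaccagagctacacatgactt
Mcoln1 (chr8:3500428-3500499, plus strand): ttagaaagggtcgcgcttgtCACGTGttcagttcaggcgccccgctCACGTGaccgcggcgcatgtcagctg
Gla (chrX:134601174-134601252, minus strand): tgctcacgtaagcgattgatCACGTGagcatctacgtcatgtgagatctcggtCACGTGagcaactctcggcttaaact
Ctsl (chr13:64370731-64370770, minus strand): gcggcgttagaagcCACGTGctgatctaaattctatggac
Gaa (chr11:119267803-119267848, plus strand): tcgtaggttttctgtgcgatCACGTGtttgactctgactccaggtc
Glb1 (chr9:114401010-114401055, plus strand): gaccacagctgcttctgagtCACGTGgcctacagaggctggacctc
Naglu (chr11:101070001-101070046, plus strand): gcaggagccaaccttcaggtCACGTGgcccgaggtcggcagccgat
Lamp1 (chr8:13159080-13159171, plus strand): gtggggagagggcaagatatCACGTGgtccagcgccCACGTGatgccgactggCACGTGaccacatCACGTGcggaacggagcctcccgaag

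Genes holding the core CACGTG moved in either direction. Of the 14 with CACGTG, 5 were called higher, 3 lower and 6 not called in WT, and of the 17 genes without it, 8 were higher, 4 lower and 5 not called. In KO the counts were 5 higher, 4 lower and 5 not called with the motif, and 6, 3 and 8 without it. Among all tested genes with a window, 31.5% of those with CACGTG and 26.1% of those without it were called higher in WT, and 24.6% and 27.9% lower. In KO these shares were 29.4% and 24.7% higher, and 21.6% and 24.4% lower. The 7 genes with the extended TCACGTGA were 3 higher, 0 lower and 4 not called in each genotype. The 24 without it were 10 higher, 7 lower and 7 not called in WT, and 8, 7 and 9 in KO. Among all tested genes with a window, 25.1% with TCACGTGA and 26.7% without it were higher in WT, and 24.2% and 27.6% lower. In KO those shares were 21% and 25.3% higher, and 22.4% and 24.1% lower. Lamp1 is the gene with the most copies, 4 in the 92 bases printed, and it was lower under L-AC in both genotypes. Of the other 2 genes with the core alone, Atp6v0b was not called in either genotype and Ctsf was lower in KO only.

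The V0 sector spans the membrane and holds the proton channel. Atp6v0e, its small e subunit, showed the largest rise of the sector. In WT it was at 30.1 to 35.7 (median 31.3) CPM under saline and 48.4 to 56.5 (median 52.2) CPM under L-AC. In KO it was at 31.4, 37.6, 29.2, 33.1 and 27.8 CPM under saline and 60.4, 52.1, 55.9, 47.2 and 61.5 CPM under L-AC. Every L-AC library lay above every saline library, at 1.62-fold in WT (log2 0.70 ± 0.07 SE, edgeR adjusted p = 8.11e-08) and 1.74-fold in KO (0.80 ± 0.08, adjusted p = 9.98e-08). Atp6v0a1, the a1 form of the stator subunit that forms the path of the protons, spanned 44.3 to 56.5 CPM under saline and 70.4 to 81.1 CPM under L-AC in WT, and 43.9 to 52.2 and 64.1 to 91.0 CPM in KO, again without overlap (log2 0.59 in WT and 0.59 in KO). Atp6v0c, the proteolipid of the rotor ring, rose by 0.54 and 0.61 on the same scale without overlap in either genotype. Its counts cannot be separated from those of the pseudogene Atp6v0c-ps2, which covers 1117 bases of its exons on the same strand and shares nearly all its reads (95078 against 95085 over all libraries). Atp6v0d1, which couples the ring to the central stalk, rose by 0.22 in WT and 0.24 in KO, and its call in KO was lost without KO L-AC replicate 2 (edgeR adjusted p = 0.0680) and in a fit of KO mice alone (0.0523). Atp6v0b, a second proteolipid, was not called (log2 0.08, 95% interval -0.11 to 0.28, in WT and 0.09, -0.13 to 0.31, in KO).

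In the V1 sector, 6 of 8 subunits were called higher in each genotype, beside 26.6% of all genes in WT and 25.2% in KO. Atp6v1e1, the E subunit of the peripheral stalks, had the smallest p of the sector in WT and KO. It was at 78.1 to 91.7 (median 86.2) CPM in WT saline and 125 to 137 (median 127) CPM in WT L-AC libraries. KO libraries held it at 86.7, 88.1, 81.0, 85.7 and 78.8 CPM under saline and 139, 122, 129, 122 and 141 CPM under L-AC. No libraries overlapped, and the log2 change was 0.60 ± 0.06 (SE) in WT (edgeR adjusted p = 1.27e-08) and 0.64 ± 0.06 in KO (adjusted p = 5.13e-08).

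Atp6v1h, the H subunit that governs the link between ATP hydrolysis and the membrane sector, was at 49.8 to 60.7 (median 58.3) CPM in WT saline and 76.5 to 95.6 (median 85.4) CPM in WT L-AC libraries. The KO values were 55.2, 53.2, 45.0, 47.9 and 56.7 CPM under saline and 73.0, 98.9, 94.4, 79.3 and 100.3 CPM under L-AC. The groups did not overlap in either genotype, and the log2 changes were 0.59 and 0.79. Atp6v1b2, the B subunit form found in most tissues, rose by 0.51 in WT and 0.66 in KO, and Atp6v1c1, a stalk subunit, by 0.49 and 0.57, both without overlap. Atp6v1d, a subunit of the central rotor, rose by 0.19 in WT and 0.38 in KO. Its interaction of genotype and treatment had an unadjusted p of 0.0412 and an edgeR adjusted p of 1. Atp6v1g1, a stalk subunit, was at the edge of the threshold, with log2 changes of 0.24 (edgeR adjusted p = 0.049) and 0.31 (adjusted p = 0.0293). That call was lost under 17 of 31 alternative settings at this threshold in WT, with adjusted p up to 0.125, and under 7 in KO, up to 0.0925.

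The V1 subunits that were not called include Atp6v1a, which carries the ATP-hydrolysing site. It was at 46.8 to 67.9 CPM in WT saline and 38.4 to 59.2 CPM in WT L-AC libraries, and its log2 estimates were -0.18 (95% interval -0.38 to 0.01) in WT and -0.24 (-0.46 to -0.02) in KO. Both estimates lay below 0, where those of its partner Atp6v1b2 lay above 0, and a call as lower was reached only without WT saline replicate 3 or WT L-AC replicate 3 in WT, and without WT L-AC replicate 1 or in a fit of KO mice alone in KO. Atp6v1f, a rotor subunit, had estimates of -0.08 (-0.26 to 0.09) and -0.02 (-0.21 to 0.18). Of the accessory proteins, Atp6ap2, the prorenin receptor that also helps to assemble the pump, rose by 0.40 in WT (edgeR adjusted p = 0.00232). In KO its estimate was 0.21 (adjusted p = 0.137), with a test of the difference between genotypes of unadjusted p = 0.239. Atp6ap1, the other accessory protein, had estimates of -0.07 (-0.21 to 0.07) in WT and 0.01 (-0.16 to 0.17) in KO.

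Summed over the 15 genes, the V-ATPase took 784 to 886 CPM in WT saline, 765 to 844 CPM in KO saline, 1020 to 1080 CPM in WT L-AC and 999 to 1154 CPM in KO L-AC libraries. No L-AC library overlapped a saline library of its genotype. Of the 15, 11 were called higher and 0 lower in WT, with 7 groups above without overlap, and 10 higher and 0 lower in KO, with 9 above. For scale, 26.6% of all genes were called higher in WT and 25.2% in KO, and 24.1% and 32.6% had groups that did not overlap, above or below. The 15 subunits share 1 complex and 1 set of animals.

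Further V-ATPase genes encode forms of the same subunits used in particular tissues, and 7 of 10 passed the filter. The a subunit is known to steer the pump to its membrane. In CPM per kb of exon, Atp6v0a1 was at 12.5 ± 1.31 in WT saline and 18.8 ± 0.920 in WT L-AC livers, Atp6v0a2, the a2 form of Golgi and endosomes, at 6.87 ± 0.354 and 9.76 ± 0.973, and Tcirg1, the a3 form known from osteoclasts, at 11.8 ± 1.45 and 6.14 ± 0.578 (SD, n = 7 and n = 6). Per length, Tcirg1 was thus close to Atp6v0a1 under saline and below both other forms under L-AC. Tcirg1 fell from 46.1, 40.8, 43.8, 54.1 and 38.3 CPM to 21.0, 17.9, 18.1, 16.6 and 19.8 CPM in KO. Its groups did not overlap in either genotype, at log2 -0.94 ± 0.09 (SE) in WT (edgeR adjusted p = 2.61e-08) and -1.26 ± 0.10 in KO (adjusted p = 4.21e-09). Atp6v0a2 rose by 0.51 and 0.53.

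Atp6v0d2, the d form of osteoclasts and macrophages, was at 0.562 to 6.58 (median 1.32) CPM in WT saline and 0 to 0.283 (median 0.192) CPM in WT L-AC libraries. In KO it was at 0.394, 2.81, 1.95, 0.845 and 1.76 CPM under saline and 0.102, 0.264, 0.138, 0.179 and 0.0617 CPM under L-AC. All L-AC libraries lay below all saline libraries (log2 -3.56 in WT, -3.37 in KO), and the L-AC libraries hold so few reads that the size of the fall is poorly set. Atp6v0d1, the form of most tissues, stood at 41.8 ± 3.22 CPM per kb in WT saline against 0.785 ± 0.835 for Atp6v0d2 (SD, n = 7). In all, 1 of the 7 was called higher and 4 lower in WT, and 2 higher and 3 lower in KO, where the shares of all genes were 26.6% and 26.7% in WT and 25.2% and 23.6% in KO. The lower ones included Atp6v1c2 in WT (-1.58) and Atp6v0a4 in KO (-0.98), forms best known from epithelia such as kidney. Neither was called in the other genotype: Atp6v1c2 was at -0.70 in KO (edgeR adjusted p = 0.239) and Atp6v0a4 at -0.53 in WT (adjusted p = 0.087). Atp6v0a4 had only 8 to 13 reads in a KO saline library and 3 to 7 in a KO L-AC library, so its fall is poorly set.

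**Figure D2:**
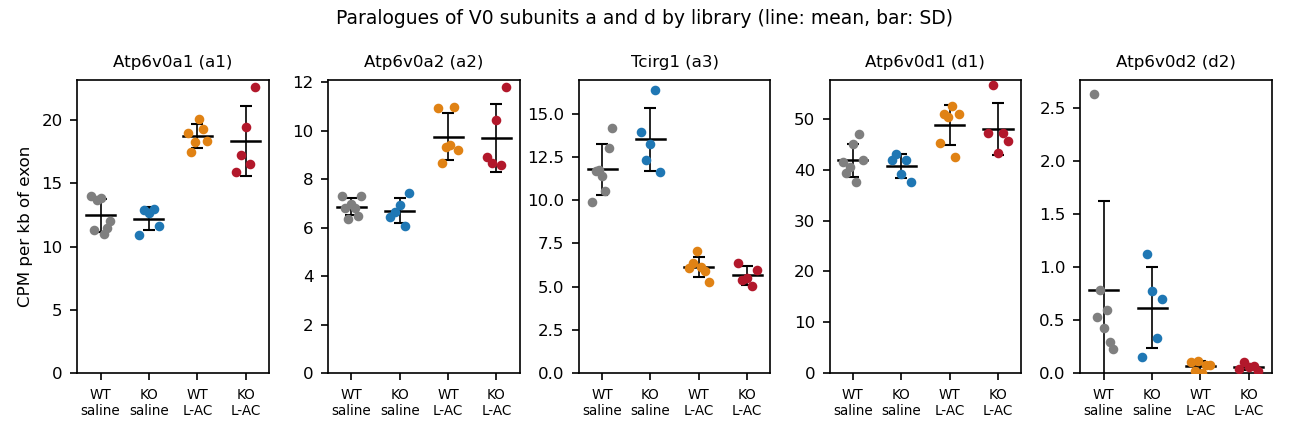
CPM per kb of exon are plotted for each library for the paralogues of V0 subunit a (Atp6v0a1, Atp6v0a2, Tcirg1) and subunit d (Atp6v0d1, Atp6v0d2), with a line at the group mean and a bar of 1 SD. Atp6v0a1 and Atp6v0a2 are higher and Tcirg1 and Atp6v0d2 lower under L-AC in both genotypes, and WT saline replicate 1 is the highest library for Atp6v0d2.

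The peptidases split in direction. Ctsl, cathepsin L, a cysteine endopeptidase, had the largest rise of the 38 genes. It was at 330.5 to 849 (median 431) CPM in WT saline and 1025 to 2314 (median 1529) CPM in WT L-AC libraries. KO libraries held it at 459.6, 526, 467, 522 and 411 CPM under saline and 2020, 846, 1793, 885 and 2358 CPM under L-AC. No L-AC library overlapped a saline library of its genotype, but the L-AC libraries themselves varied widely, with KO L-AC replicates 2 and 4 and WT L-AC replicates 3 and 6 the lowest. The rise was 3.12-fold in WT (log2 1.64 ± 0.25 SE, edgeR adjusted p = 1.05e-05) and 3.31-fold in KO (1.73 ± 0.29, adjusted p = 3.94e-05). With any 1 library left out, the log2 change stayed between 1.499 and 1.82 in WT and between 1.54 and 1.89 in KO. Per kb of exon Ctsl ranked 2nd of the 38 genes under saline, behind Lamp1, and 1st under L-AC.

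Ctsd, cathepsin D, the main aspartic peptidase of lysosomes, was at 279 to 375 (median 306) CPM in WT saline and 421 to 497 (median 446) CPM in WT L-AC libraries. The KO values were 303, 310.3, 302, 335 and 329 CPM under saline and 434, 481, 469.8, 422 and 502 CPM under L-AC. The treatments did not overlap in either genotype (log2 0.51 and 0.55, edgeR adjusted p = 5.88e-06 and 1.49e-05), and its extended E-box is among the sequences above. Ctsh, cathepsin H, an aminopeptidase, moved the other way. It was at 213 to 269.7 (median 245) CPM in WT saline and 123 to 162 (median 152) CPM in WT L-AC libraries. In KO it was at 269, 254, 260, 315 and 262 CPM under saline and 116, 135, 127, 158 and 149.7 CPM under L-AC, all below the saline values, as in WT. The log2 change was -0.73 ± 0.09 (SE) in WT (edgeR adjusted p = 4.18e-07) and -0.99 ± 0.10 in KO (adjusted p = 4.8e-08), and the difference between genotypes had an unadjusted p of 0.0624.

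Ctsb, cathepsin B, fell by 0.35 in WT and 0.34 in KO on the log2 scale. Saline and L-AC libraries spanned 458 to 627 and 404 to 515 CPM in WT, with overlap, and 551 to 636 and 386 to 501 CPM in KO, without overlap. Its exons overlap those of Fdft1, on the other strand, over 774 bases, where reads were counted for both genes. Ctss, cathepsin S, a peptidase of macrophages and other antigen-presenting cells, was at 7.56 to 20.4 CPM in WT saline and 5.87 to 11.1 CPM in WT L-AC libraries. It was called lower in WT (-0.62, edgeR adjusted p = 0.0353) and not in KO (-0.60, adjusted p = 0.0781). The WT call was lost without saline replicate 4, 6 or 7, among other settings, with adjusted p up to 0.108. Ctsf, cathepsin F, was called in KO only (-0.29, adjusted p = 0.0266, lost under 6 settings with adjusted p up to 0.186), against -0.20 (0.0716) in WT, and the difference had an unadjusted p of 0.532.

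Of the other 3 peptidases none was called. The carboxypeptidase Ctsa, which protects beta-galactosidase and neuraminidase, had estimates of -0.14 (95% interval -0.32 to 0.04) in WT and -0.23 (-0.43 to -0.03) in KO. Its exons overlap those of Pltp over 495 bases and of Neurl2 over 325 bases, on the other strand, where reads were counted for both genes. For Ctsz, a carboxypeptidase, the estimates were 0.12 (-0.08 to 0.32) and 0.04 (-0.19 to 0.27). For Tpp1, tripeptidyl peptidase 1, they were 0.15 (-0.01 to 0.31) and -0.12 (-0.30 to 0.06), of opposite sign, with an interaction of unadjusted p = 0.0303 and edgeR adjusted p = 1. Summed over the 9 peptidases the level was 2084 to 2515 CPM under saline and 2795 to 3849 CPM under L-AC in WT, and 2174 to 2605 and 2501 to 4084 CPM in KO, where KO L-AC replicate 4, one of the libraries lowest for Ctsl, lay inside the saline range.

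Among the glycosidases, Gaa, acid alpha-glucosidase, which degrades lysosomal glycogen, was the only one called higher. In WT it was at 130.2 to 185 (median 152) CPM under saline and 176 to 270.2 (median 214) CPM under L-AC, with overlap. KO libraries held it at 161, 143, 173, 159.8 and 147 CPM under saline and 233, 225, 219.9, 233 and 188 CPM under L-AC, without overlap. The log2 change was 0.49 ± 0.10 (SE) in WT (edgeR adjusted p = 0.00032) and 0.49 ± 0.11 in KO (adjusted p = 0.00122). Glb1, beta-galactosidase, which acts on gangliosides and keratan sulfate, was at 4.31 to 9.65 (median 7.92) CPM in WT saline and 2.79 to 6.02 (median 4.78) CPM in WT L-AC libraries. The KO values were 6.69, 10.4, 5.30, 13.3 and 6.18 CPM under saline and 3.68, 4.57, 4.90, 5.50 and 4.23 CPM under L-AC. The treatments overlapped in both genotypes, and the estimates were -0.66 ± 0.22 (edgeR adjusted p = 0.0148) and -0.87 ± 0.25 (adjusted p = 0.00667). Glb1 shares 175 bases of exon with Tmppe on the same strand, where reads were counted for both.

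Naglu, which removes N-acetylglucosamine from heparan sulfate, was lower in WT (-0.41, edgeR adjusted p = 0.00117) and in KO (-0.29, adjusted p = 0.0312). The KO call was lost under 7 alternative settings, with adjusted p up to 0.206. Gla, alpha-galactosidase A, the least expressed of the 38 genes per length, was not called (-0.26, -0.57 to 0.05, in WT and -0.30, -0.65 to 0.06, in KO). Hexa, the alpha chain of beta-hexosaminidase, was not called either (-0.12, -0.41 to 0.16, and -0.01, -0.33 to 0.32). Psap, the precursor of the saposins that present sphingolipids to these enzymes, had nearly the same estimate in both genotypes, 0.28 in WT (edgeR adjusted p = 0.0272) and 0.28 in KO (adjusted p = 0.061). Its call changed under 7 settings in each genotype.

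**Figure D3:**
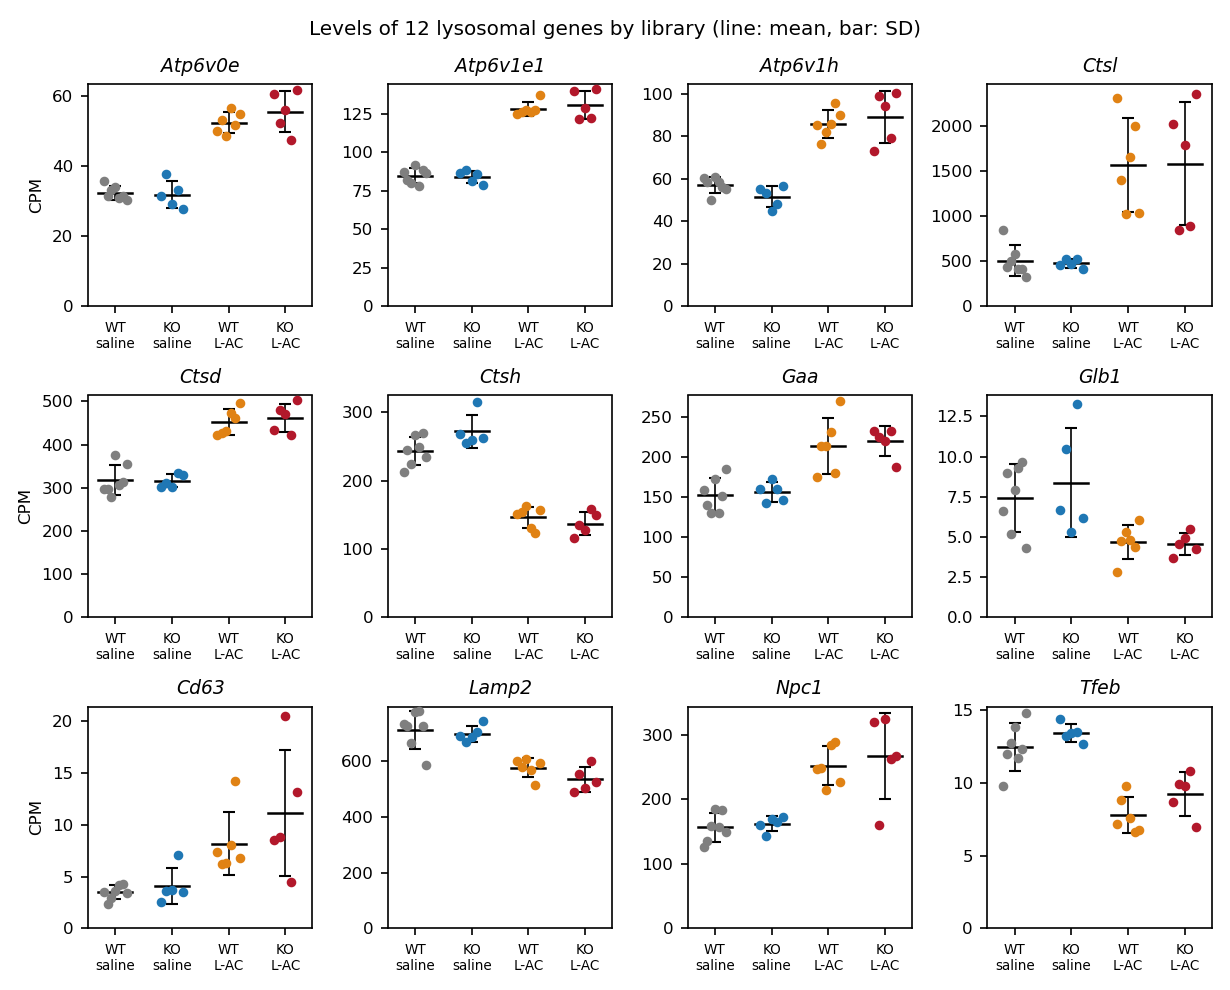
CPM of 12 of the genes are plotted for each library in the 4 groups, with a line at the group mean and a bar of 1 SD. Atp6v0e, Atp6v1e1, Atp6v1h, Ctsl and Ctsd sit higher and Ctsh lower under L-AC with no overlap in either genotype, whereas 1 KO L-AC library remains among the saline values for Npc1 and for Cd63.

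The membrane proteins also went both ways. Cd63, a tetraspanin of late endosomes, lysosomes and exosomes, had the second largest rise. It was at 2.38 to 4.27 (median 3.51) CPM in WT saline and 6.18 to 14.2 (median 7.06) CPM in WT L-AC libraries, without overlap. In KO it was at 2.54, 3.56, 3.66, 7.08 and 3.52 CPM under saline and 8.49, 8.84, 20.5, 4.50 and 13.2 CPM under L-AC, with overlap between KO saline replicate 4 and KO L-AC replicate 4. The log2 change was 1.23 ± 0.28 (SE) in WT (edgeR adjusted p = 0.000846) and 1.44 ± 0.32 in KO (adjusted p = 0.000794). It was 0.999 in WT without L-AC replicate 5 and 1.10 in KO without L-AC replicate 3, the highest library of each group. KO L-AC replicate 3 was also the highest of all libraries for Cd68, a lysosomal membrane protein of macrophages, at 66.04 CPM against 7.29 to 17.9 CPM in the other 4 KO L-AC libraries, for Gpnmb, a glycoprotein of lipid-laden macrophages, at 39.3 CPM against 2.72 to 12.1 CPM, and for Lgals3, a macrophage lectin, at 40.3 CPM against 1.72 to 4.53 CPM. Cd68, Gpnmb and Lgals3 were picked after their values were seen. Of the other markers of lipid-laden macrophages, only Atp6v0d2 is given by library in this report. It was at 0.138 CPM in KO L-AC replicate 3, within the 0.0617 to 0.264 CPM of the rest of that group. The counts that follow compare whole groups and do not describe that library. Of 12 Kupffer cell markers, 0 were called higher and 5 lower under L-AC in KO. Of 8 markers of lipid-laden macrophages, 3 were higher and 2 lower there, beside 25.2% and 23.6% of all genes. The part of macrophages in the Cd63 level was not tested.

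Scarb2, or LIMP-2, which carries glucocerebrosidase to lysosomes, was at 79.0 to 135 (median 114) CPM in WT saline and 159 to 175 (median 172) CPM in WT L-AC libraries. KO libraries held it at 109, 101, 105, 104 and 132 CPM under saline and 141, 126, 162, 156 and 152 CPM under L-AC. The treatments overlapped in KO only, by saline replicate 5, and the log2 changes were 0.65 and 0.42 (edgeR adjusted p = 2.29e-05 and 0.00674). Lamp1 and Lamp2, the most abundant glycoproteins of the lysosomal membrane, were lower. Lamp2 was at 586 to 780.4 (median 728) CPM in WT saline and 515 to 607 (median 586) CPM in WT L-AC libraries, with overlap. The KO values were 691, 669, 688, 704 and 746 CPM under saline and 490.2, 553, 504, 601 and 526 CPM under L-AC, without overlap. The estimates were -0.31 ± 0.07 (SE, edgeR adjusted p = 0.00135) and -0.39 ± 0.08 (adjusted p = 0.000589) for Lamp2, and -0.25 and -0.35 for Lamp1 (adjusted p = 0.0136 and 0.00293). Mcoln1, the calcium channel of lysosomes whose opening activates calcineurin, was not called, at 0.10 (95% interval -0.04 to 0.24) in WT and -0.03 (-0.19 to 0.13) in KO.

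Npc1 and Npc2 hand cholesterol from the lysosomal lumen to the membrane and out of the organelle, and they moved in opposite directions. Npc1, the membrane protein, was at 126 to 185 (median 158) CPM in WT saline and 214 to 289 (median 248) CPM in WT L-AC libraries, without overlap. In KO it was at 161, 143, 169, 166 and 172 CPM under saline and 320.3, 160.1, 325, 262 and 268 CPM under L-AC, where replicate 2 lay within the saline range and the other 4 above it. The log2 change was 0.69 ± 0.13 (SE) in WT (edgeR adjusted p = 0.000108) and 0.72 ± 0.15 in KO (adjusted p = 0.000305). Npc1 shares 164 bases of exon with 3110002H16Rik on the other strand. Npc2, the soluble carrier, was at 51.2 to 65.2 (median 56.7) CPM in WT saline and 37.0 to 47.8 (median 41.1) CPM in WT L-AC libraries. KO libraries held it at 57.5, 67.2, 60.9, 72.2 and 55.1 CPM under saline and 44.3, 48.5, 42.4, 42.5 and 45.0 CPM under L-AC. The Npc2 groups did not overlap in either genotype (log2 -0.48 ± 0.08 and -0.49 ± 0.09, edgeR adjusted p = 1.93e-05 and 7.11e-05).

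**Figure D4:**
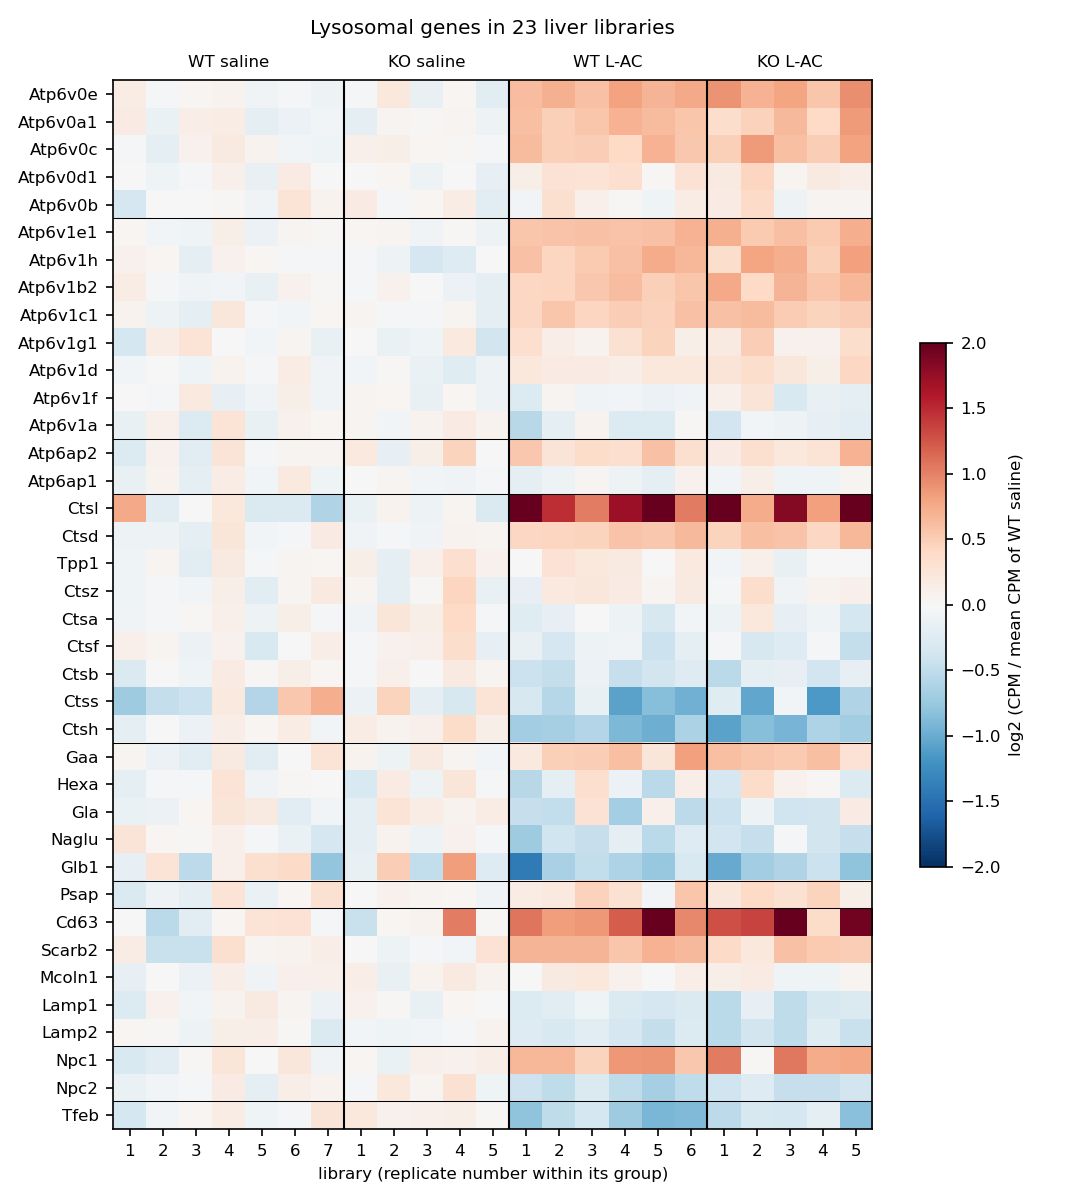
Each cell shows the log2 ratio of a gene's CPM in 1 library to its mean CPM over the WT saline libraries, for 38 genes (rows, by role) and 23 libraries (columns, by group), with the colour scale ending at -2 and 2. The upper block of V-ATPase genes is mostly red in the L-AC columns of both genotypes, Ctsl and Cd63 are the darkest red rows, Ctsh, Npc2 and Tfeb are blue, and the saline columns of WT and KO are pale.

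Loss of Ehhadh was compared with WT within each treatment. None of the 38 genes was called, higher or lower, in KO against WT under saline or under L-AC, where 2 genes of all tested (0.0141%) were called in each comparison. At an unadjusted p under 0.05 the count was also 0 of 38 in both, where 1.86% of all genes under saline and 4.53% under L-AC had such a p. DESeq2 and limma-voom called 0 of 38 in both. Under saline the log2 differences of KO from WT ran from -0.14 (Atp6v1h) to 0.23 (Cd63), with 95% limits between -0.62 and 0.85 over the 38 genes. Under L-AC they ran from -0.21 (Scarb2) to 0.45 (Cd63), with limits between -0.55 and 1.06. Other genes had narrower intervals: Atp6v1e1 had a 95% interval of -0.13 to 0.11 under saline and -0.10 to 0.15 under L-AC, Ctsd of -0.17 to 0.15 and -0.13 to 0.20, and Lamp2 of -0.19 to 0.13 and -0.27 to 0.06. For Ctsl it was -0.62 to 0.46 under saline and -0.55 to 0.56 under L-AC, so that a difference of up to about that size cannot be told from none. Tfeb had the smallest p under L-AC, at log2 0.25 (unadjusted p = 0.0507).

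The difference of the L-AC response between genotypes was tested as an interaction. It was called for 0 of the 38 genes and 0% of all genes tested, and 2 of 38 (Tpp1 and Atp6v1d) had an unadjusted p under 0.05, where 2.25% of all genes did; DESeq2 and limma-voom called 0 as well. Across the 38 genes the log2 response to L-AC in WT and that in KO, from separate sets of libraries, were correlated at 0.98 (Pearson) and 0.974 (Spearman), as a description across genes, which are not independent replicates. The same correlation across all 14196 genes was 0.935. Of the 38 genes, 24 were called in the same direction in both genotypes, 3 in WT only (Atp6ap2, Ctss, Psap), 1 in KO only (Ctsf) and 10 in neither. Of all genes tested, 53.3% were called in WT and 48.8% in KO. The share of all genes called in both was not counted, so the 24 cannot be set against it.

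The rest of the lysosomal gene set was read from lists of further genes. Of 33 other hydrolases and activators, 3 were called higher and 8 lower in WT, and 3 higher and 11 lower in KO, with median log2 changes of -0.12 and -0.11. Of all genes tested, 26.6% were called higher and 26.7% lower in WT, and 25.2% and 23.6% in KO, and the counts of the lists that follow stand beside the same shares. Lipa, the acid lipase that releases cholesterol and fatty acids from lipoproteins and lipid droplets, rose in both. It spanned 228 to 320.2 CPM under saline and 376 to 672 CPM under L-AC in WT, and 248 to 308 and 434 to 573 CPM in KO, without overlap (log2 0.88 ± 0.12 SE and 0.81 ± 0.13, edgeR adjusted p = 1.57e-06 and 3.13e-05). Ctsc, cathepsin C, which activates serine peptidases of leukocytes, fell by 1.31 in each genotype. Gm2a, the activator of ganglioside breakdown, was at -1.28 and -1.61, and Ids, a sulfatase of heparan and dermatan sulfate, at -0.55 and -0.64, both called lower.

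Of 18 other membrane and transport proteins, 6 were called higher and 1 lower in WT, and 8 higher and 1 lower in KO. Tmem192, a membrane protein of late endosomes and lysosomes, rose by 0.66 and 0.78, Sidt2, a lysosomal membrane protein linked to nucleic acid uptake, by 0.59 and 0.57, and Lmbrd1, which takes part in vitamin B12 export, by 0.46 and 0.41. Slc36a1, an exporter of small amino acids, was the one called lower (-0.70 and -0.79). Of 9 genes of mannose 6-phosphate tagging and sorting, 3 were higher and 2 lower in WT and 2 higher and 2 lower in KO. They include Gnptg, the gamma subunit of the phosphotransferase that makes the tag, which was lower (-0.26 and -0.33), and its partner Gnptab, called higher in WT (0.31, edgeR adjusted p = 0.00408) and at 0.23 in KO (adjusted p = 0.0552). The sorting adaptor Gga2 was higher (0.42 and 0.33), its relative Gga3 lower (-0.36 and -0.36), and the receptor M6pr was called higher in KO (0.19), with 0.13 in WT (adjusted p = 0.0681).

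Of 18 tested genes that control Tfeb and its relatives, 6 were higher and 5 lower in WT and 6 higher and 4 lower in KO, beside 26.6% and 26.7% of all genes in WT and 25.2% and 23.6% in KO. Mtor, the kinase of mTORC1, was at 61.3 to 104 (median 70.8) CPM in WT saline and 189 to 290.4 (median 241) CPM in WT L-AC libraries. The KO values were 59.1, 96.7, 74.7, 80.0 and 90.3 CPM under saline and 217, 194, 259, 212 and 239 CPM under L-AC. The treatments were far apart in both genotypes, at 3.04-fold in WT (log2 1.60 ± 0.13 SE, edgeR adjusted p = 1.6e-09) and 2.79-fold in KO (1.48 ± 0.15, adjusted p = 5.16e-08). The Rag GTPases, which bring mTORC1 to lysosomes, were higher for Rragc (0.55 and 0.61) and Rraga (0.56 and 0.68), and the Ragulator subunit Lamtor2, part of their anchor, was lower (-0.69 and -0.59). Zkscan3, a repressor of autophagy and lysosomal genes, was lower too (-0.51 and -0.47). Neither relative of Tfeb was called: Tfe3 was at 25.2 ± 3.38 CPM in WT saline and 23.5 ± 4.19 CPM in WT L-AC livers (SD, n = 7 and n = 6; log2 -0.10, 95% interval -0.34 to 0.14), and Mitf at 4.15 ± 0.593 and 5.04 ± 1.27 CPM (0.28, -0.06 to 0.62). In KO their estimates were 0.17 (-0.10 to 0.44) and 0.15 (-0.23 to 0.54).

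Macrophages are rich in lysosomes, so markers of liver cell types were read from the same fit. Of 12 Kupffer cell markers, 0 were called higher and 9 lower in WT and 0 higher and 5 lower in KO under L-AC, and none of the 12 was at 0 throughout a group. Of all genes, 26.6% were higher and 26.7% lower in WT, and 25.2% and 23.6% in KO, and the counts of the other markers below stand beside these shares. Cd68, which is in the list of membrane proteins, was called higher in both genotypes (log2 1.499 in WT, edgeR adjusted p = 0.00343, and 2.27 in KO, adjusted p = 0.000386). Its treatments overlapped in KO, where L-AC replicate 3 was at 66.04 CPM and the rest of that group at 7.29 to 17.9 CPM. The 12 Kupffer cell markers summed to 117 to 362 CPM in WT saline and 152 to 275 CPM in KO saline livers. Under L-AC their sum was 86.7 to 157 CPM in WT and 81.0 to 166 CPM in KO, with overlap between treatments. Of 8 markers of lipid-laden macrophages, 1 was higher and 3 lower in WT, and 3 higher and 2 lower in KO; Gpnmb was called higher in both (4.09 and 4.43) and Atp6v0d2, described above, lower. Of 10 hepatocyte markers, 2 were higher and 4 lower in WT and 0 higher and 6 lower in KO, with sums of 71110 to 83450 CPM in WT saline and 54410 to 65450 CPM in WT L-AC livers and of 78610 to 88380 and 41290 to 68000 CPM in KO. Among 8 monocyte and neutrophil markers, 0 were higher and 2 lower in each genotype. Of 5 lymphocyte markers tested, 1 was higher and 4 lower in WT, and 1 and 1 in KO. Endothelial markers, 8 in all, were 0 higher and 1 lower in WT, and 0 and 2 in KO. Stellate cell markers, also 8, were 3 higher and 1 lower in WT, and 2 and 1 in KO. Bile duct markers, 5 in all, were 0 higher and 1 lower in each genotype. The part of these cell types in the levels of Ctss, Ctsh, Ctsc, Tcirg1 and the other lysosomal genes was not tested.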

How the data were processed

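The deposited files hold raw counts of reads per gene, 1 file per library, which the authors obtained, per the file headers, with featureCounts 1.4.4 and a UCSC annotation of mm10. Exons were grouped by gene, primary alignments kept, strand not used, and, per the file headers, reads that overlapped several genes counted for each, so that reads in shared or antisense exons count for both genes. Reads were aligned with STAR 2.4.0 to mm10 (GRCm38), per the submitters' processing notes.

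Groups come from the labels. Replicates are separate animals, numbered in accession order, so equal numbers do not pair animals; no batch or date is given. Chi-square over degrees of freedom was 44.05 or more in all 253 pairs of libraries, so no library appears to be deposited more than once.

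Genes were kept by filterByExpr (minimum count 10, minimum total 15), scaled by TMM, and tested across the 23 libraries, with a mean for each of the 4 groups, by edgeR 4.0.16 quasi-likelihood (R 4.3.3), with Benjamini-Hochberg adjustment over 14196 genes and two-sided p. CPM, SE and 95% intervals come from this fit. The script was tested on simulated data. Alternatives were DESeq2 1.42.0 and its size factors, limma-voom (limma 3.58.1), other filters, a term for age in weeks, fits restricted to the libraries compared, a threshold of 0.01 on the adjusted p, each library left out and, chosen after seeing the data, library totals with no scaling. Lists of other genes were read from the same fit. All 38 genes are accounted for; from each of the 5 lists of other V-ATPase, hydrolase, membrane, sorting and Tfeb control genes up to 4 called genes with the smallest p per comparison were named, plus Tfe3, Mitf and Atp6v0d2; 2 of the genes so chosen are not reported here. Cd68, Gpnmb and Lgals3 were named after their values were seen. Adgre1 was matched as Emr1. The 38 genes and the lists were chosen with earlier results of these data known. Promoter sequences are from RefSeq (GRCm38.p6).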

Additional observations from a re-analysis of the deposited data

Results flagged for a closer look

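In 8 of the 152 combinations of gene and group, 1 library stood apart from the others of its group by Dixon's test at the 95% level, and chance alone flags about 1 in 20, or 7.6 of 152. Atp6v1e1 was at 137 CPM in WT L-AC replicate 6, above 125 to 127 CPM in the other libraries of the group. Atp6ap2 was at 74.3 CPM in KO L-AC replicate 5, above 51.2 to 57.1 CPM. Ctsh was at 314.6 CPM in KO saline replicate 4, above 254 to 269 CPM. Hexa was at 64.7 CPM in WT saline replicate 4, above 47.2 to 54.5 CPM. Naglu was at 26.1 CPM in KO L-AC replicate 3, above 19.4 to 20.8 CPM. Scarb2 was at 131.9 CPM in KO saline replicate 5, above 101 to 109 CPM. Cd63 was at 7.08 CPM in KO saline replicate 4, above 2.54 to 3.66 CPM, and at 14.2 CPM in WT L-AC replicate 5, above 6.18 to 8.07 CPM. All 8 were the highest library of their group, and KO saline replicate 4 held 2 of them.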

How the results depend on the processing

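No direction reversed among called genes of the 38. The counts below are of the 38 genes alone. The shares of all genes called were not counted under the alternative settings. Leaving out each library in turn gave 16 to 18 of the 38 genes higher and 8 to 11 lower under L-AC in WT, and 14 to 17 higher and 7 to 10 lower in KO. Over the other settings the counts ran from 15 to 19 higher and 6 to 9 lower in WT and from 14 to 18 higher and 6 to 10 lower in KO; the lowest were at an adjusted p under 0.01, except 6 lower in KO with library totals. KO against WT, under saline or L-AC, and the interaction gave 0 called genes under every setting run. At an adjusted p under 0.05, calls of 7 genes in WT and 10 in KO changed under at least 1 of 31 settings; those gained or lost include Atp6v1g1 (lost in 17 settings in WT and 7 in KO), Ctss and Psap (each lost in 7 in WT), Naglu (lost in 7 in KO), Ctsf (lost in 6 in KO), Ctsa (gained in 5 in KO) and Ctsb (lost in 1 in KO, with library totals, edgeR adjusted p = 0.0512). The cause of these changes was not tested. No paired analysis was possible because replicate numbers were given in accession order and the labels pair no animals. Precision is set by 5 to 7 animals a group: the genes of lowest count, Gla, Cd63, Glb1, Ctss and Tfeb, had 71 reads or more in a library.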
